A study of Homo sapiens with 6 samples.

Results

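DEAD-box and DEAH-box helicases are ATPases that open short stretches of base-paired RNA, remodel RNA-protein complexes or clamp onto RNA, and each family is named after the amino acids of a conserved motif that takes part in ATP hydrolysis. Their genes carry DDX and DHX symbols and serve almost every step in the life of an RNA, among them ribosome assembly in the nucleolus, splicing, export, translation and decay. Several of them, DHX9, DDX5, DDX21, DDX41 and DDX1 among others, are known from other work to act on R-loops, structures of an RNA paired with its DNA template and a looped-out DNA strand. Genes were taken by their symbol, DDX or DHX followed by digits and at most 1 letter, which matched 56 of 62700 gene IDs. DDX60, DHX58 and the Y-linked paralog of DDX3X were left out by the rule, which left 53 genes, 38 DDX and 15 DHX. The DDX58 gene is listed in these data as RIGI and so falls outside this rule.

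The cells were KYSE510, an established line of oesophageal squamous cell carcinoma, in which an shRNA lowered the ribonuclease that the study names RNH1, as a model of induced R-loops. Poly(A) RNA was sequenced from 3 libraries of RNH1 knockdown cells (shRNH1) and 3 libraries of wild-type cells with a control shRNA (shControl). The number of shRNA sequences and any cloning of cells are not stated. Replicates are named biological in the labels, with no word on separate cultures, so the p-values below cover the spread among these libraries, which may be technical. Total counts were 31394687 to 33421217 in shRNH1 libraries and 40225486 to 41103220 in shControl libraries. RNASEH1, the gene of the ribonuclease that cuts RNA in RNA:DNA hybrids, measured 7.40, 7.03 and 7.03 CPM (counts scaled to the TMM-normalised library size) in shRNH1, against 34.9, 32.5 and 27.5 CPM in shControl. Its log2 fold change was -2.14 (edgeR adjusted p = 1.61e-13). The gene that carries the symbol RNH1 in the files, which encodes the ribonuclease inhibitor, had a log2 fold change of -0.19 and did not pass (adjusted p = 0.221). All 9 squamous epithelial markers were detected, with a summed level of 581 to 627 CPM in shRNH1 and 583 to 770 CPM in shControl, most of it KRT17. Of these, KRT5, KRT14 and KRT6A fell in shRNH1, SOX2, PKP1 and CDH1 rose, and TP63, KRT17 and DSG3 did not pass. PKP1 was near the floor, with 10, 21 and 16 counts in shRNH1, against 2, 1 and 0 counts in shControl. The summed level of 5 fibroblast markers was 0.0854 to 0.560 CPM in shRNH1 and 0 to 0.0814 CPM in shControl, with COL1A2 and DCN at 0. That of 6 leukocyte markers was 7.18 to 9.52 CPM in shRNH1 and 5.81 to 7.27 CPM in shControl, most of it CSF1R, and PTPRC, CD3E and LYZ stayed below the filter on low counts. That of 4 endothelial markers was 18.4 to 20.7 CPM in shRNH1 and 20.0 to 21.8 CPM in shControl, most of it CDH5, with KDR at 0, and 1 of them, PECAM1, rose (log2 fold change 0.51, edgeR adjusted p = 0.0234). The part of these markers in the results below was not tested.

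Of the 53 helicase genes, 50 had enough counts to be tested, and 18 of these were lower and 4 higher in shRNH1 than in shControl cells (edgeR's quasi-likelihood test, Benjamini-Hochberg adjusted p below 0.05 over all 19682 genes tested). Over all genes tested 12.3% were called lower and 15.3% higher, against 36% and 8% of the tested helicase genes. The changes were small. The largest fall was that of DDX51, at 59.2% of the shControl level, and the largest rise that of DDX60L, at 130% of it, and no helicase gene reached a log2 fold change of 1 in either direction. The median log2 fold change was -0.19 over the tested helicase genes and 0.02 over all genes tested. Of the 50 values 38 were negative (76%), beside 48.3% over all genes tested. With library size alone in place of TMM, the medians were -0.079 and 0.13, a shift of 0.11 over all genes, and 10 helicase genes were lower and 7 higher, against 1433 and 4065 of all genes. The distance between both medians was -0.203 with TMM and -0.206 with library size alone. In CPM of a bulk library, fewer cells that carry an RNA and less of it per cell cannot be told apart.

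Helicase genes are abundant mRNAs, and abundant genes as a whole were called lower more often. The genes tested were split into 5 equal classes by mean log2 CPM. Of the 28 helicase genes in the most abundant class (5.74 or more), 14 were lower and 1 was higher, where 27.7% and 12.3% of all genes of that class were. Their median log2 fold change was -0.25, against -0.097 over all genes of that class. Of the 17 in the next class, 3 were lower and 2 higher, beside 16.8% and 19.1% of all genes there. In the middle class, where 9.63% of genes were lower and 23.9% higher, DDX60L was higher and the other 2 members were not called. DDX47 was lower in the next one down (5.11% lower, 14.3% higher), and DDX43 was not called in the least abundant class (2.18% lower, 6.76% higher). With an offset that removes the trend of fold change over expression level, 13 helicase genes were lower and 2 higher, and their median was -0.18. The distance from the median over all genes was then -0.164. Without shRNH1 replicate 3, 12 were lower, and without shControl replicate 1, 13. Every shRNH1 library lay below every shControl library for 22 helicase genes and above for 5, where 18.6% and 21.4% of all genes tested did so. The summed level of all 53 genes was 5084, 4803 and 5156 CPM in shRNH1, against 5866, 5626 and 5785 CPM in shControl. The ribosome biogenesis helicases made up most of that gap, with 1700, 1670 and 1719 CPM in shRNH1 against 2193, 2067 and 2271 CPM in shControl. Among shRNH1 libraries replicate 2 lay lowest, with a median over the tested helicase genes of -0.28 in log2 against the shControl mean, against -0.17 and -0.18 in replicates 1 and 3.

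**Figure D1:**
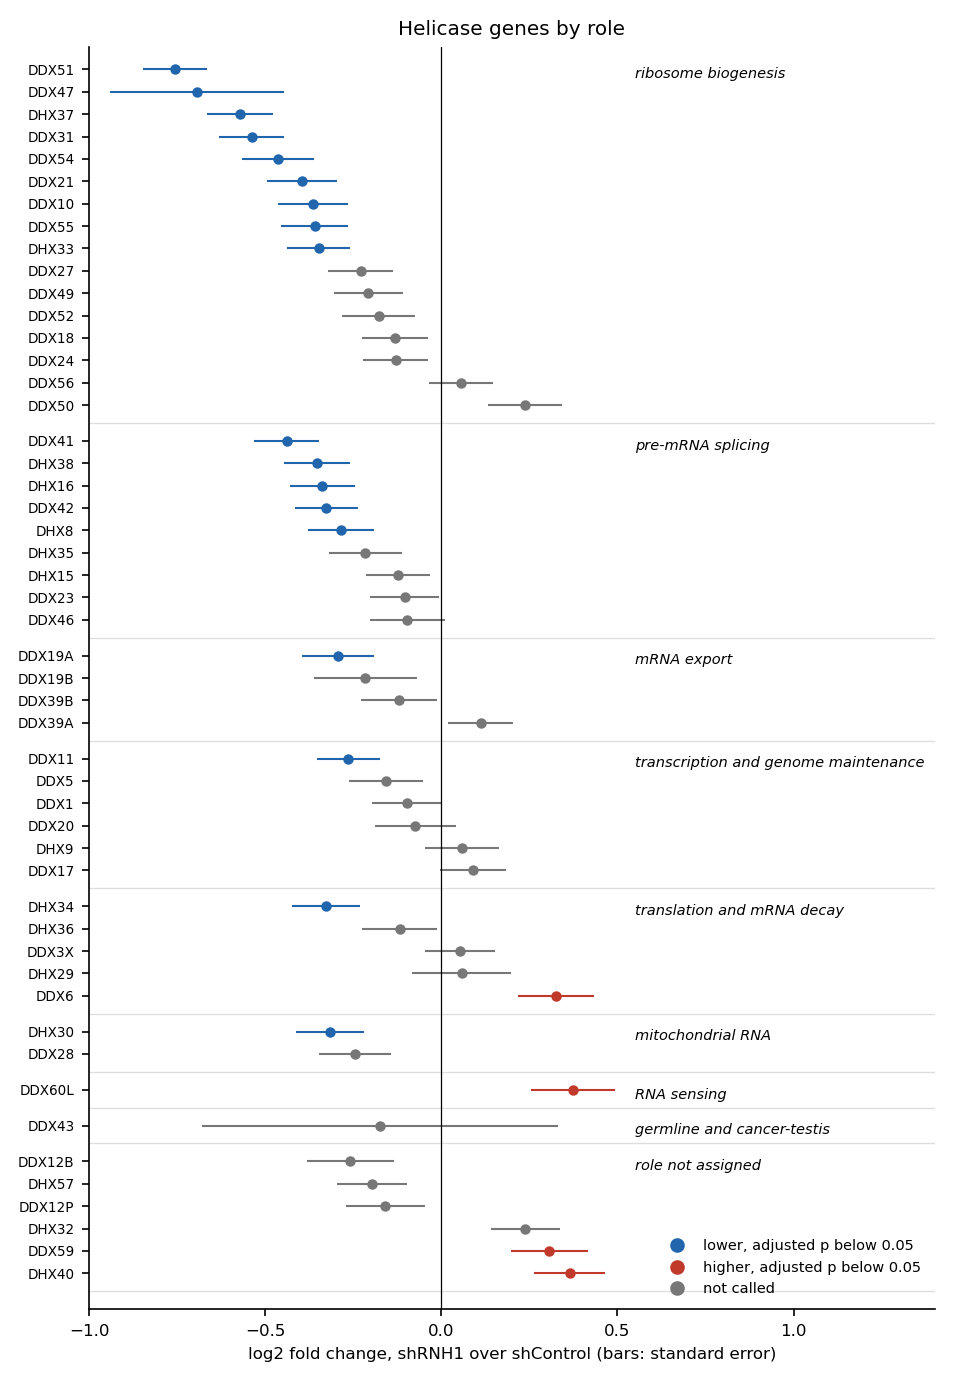
Log2 fold change of shRNH1 over shControl (x axis; bars are standard errors) for the 50 tested helicase genes, grouped by role and sorted within each role. The 18 genes called lower are mostly in ribosome biogenesis (9 of 16) and splicing (5 of 9), and the 4 called higher are DDX6, DDX60L, DDX59 and DHX40.

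**Figure D2:**
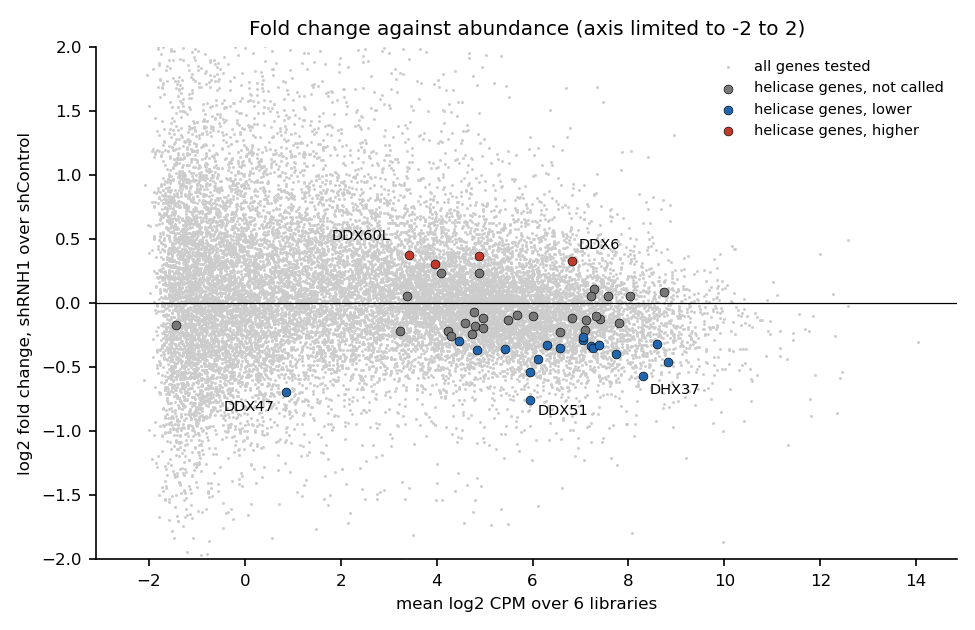
Log2 fold change of shRNH1 over shControl against mean log2 CPM for all 19682 genes tested (grey) and for the helicase genes (large points, coloured by call). The y axis is limited to -2 to 2, and most helicase genes sit at the abundant side and below 0.

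The promoters of the genes with the 4 smallest adjusted p among the falls, and that of DHX40 with the smallest among the rises, are shown to let the members be compared in sequence. Each run is the 250 bases before the RefSeq start that lies farthest 5′, from RefSeq on GRCh38.p14, 5′ to 3′ on the gene's strand. In the GENCODE 29 annotation, genes can start farther 5′. By it the runs of DDX31 and DDX41 lie wholly inside their genes, and those of DDX51 and DHX40 cross the gene's start. Bases just after the RefSeq start were found in GENCODE 29 transcripts of each gene except DDX41. Capitals mark CACGTG, the E-box bound by MYC and related factors, and CCGGAA with its reverse complement, a core of sites for ETS factors.
DDX51 (chr12:132144320-132144569, minus strand): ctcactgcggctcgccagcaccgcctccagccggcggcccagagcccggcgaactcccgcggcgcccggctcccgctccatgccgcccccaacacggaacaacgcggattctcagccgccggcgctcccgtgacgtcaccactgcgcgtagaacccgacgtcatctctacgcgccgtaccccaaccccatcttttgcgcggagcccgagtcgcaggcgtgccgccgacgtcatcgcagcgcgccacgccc
DHX37 (chr12:124989132-124989381, minus strand): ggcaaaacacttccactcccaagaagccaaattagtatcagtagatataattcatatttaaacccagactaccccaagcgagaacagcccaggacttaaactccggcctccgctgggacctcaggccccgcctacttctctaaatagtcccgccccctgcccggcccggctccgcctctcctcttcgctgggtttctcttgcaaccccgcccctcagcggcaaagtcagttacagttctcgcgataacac
DDX31 (chr9:132669984-132670233, minus strand): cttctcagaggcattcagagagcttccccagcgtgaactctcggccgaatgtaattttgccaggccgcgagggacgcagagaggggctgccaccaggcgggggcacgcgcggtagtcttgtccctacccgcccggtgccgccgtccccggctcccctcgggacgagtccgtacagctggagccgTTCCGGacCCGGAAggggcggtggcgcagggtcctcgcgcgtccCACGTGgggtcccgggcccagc
DDX41 (chr5:177516962-177517211, minus strand): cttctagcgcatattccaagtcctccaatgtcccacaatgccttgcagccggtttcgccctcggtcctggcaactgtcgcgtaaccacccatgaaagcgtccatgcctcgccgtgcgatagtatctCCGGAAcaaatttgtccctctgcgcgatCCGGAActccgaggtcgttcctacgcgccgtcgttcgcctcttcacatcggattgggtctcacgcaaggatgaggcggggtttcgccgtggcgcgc
DHX40 (chr17:59565360-59565609, plus strand): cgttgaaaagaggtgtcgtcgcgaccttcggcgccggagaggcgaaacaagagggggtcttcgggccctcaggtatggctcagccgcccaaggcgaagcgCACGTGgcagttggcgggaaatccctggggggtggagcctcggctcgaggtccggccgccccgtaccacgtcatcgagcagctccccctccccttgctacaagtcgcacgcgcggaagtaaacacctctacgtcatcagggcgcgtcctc
The DDX51 and DHX37 runs held neither motif, although the longer window of DHX37 searched below held each of them once, DDX41 held CCGGAA at 2 places, DDX31 held CACGTG once and CCGGAA at 2 places, and the DHX40 run held CACGTG. The RefSeq table held 47 of the 53 genes, with 62 windows of 250 bases before to 50 bases after a start. Searched on both strands, CCGGAA was in 56.5% of the helicase windows, against 25.2% of windows of all genes tested and 17.2% of all windows. Of windows of all genes in the most abundant class, 27.2% held this motif. Among helicase windows it was in 15 of 21 windows of genes called lower, 16 of 30 of genes not called and 2 of 7 of genes called higher. Some genes have several windows, which can overlap. Counted by gene, it was in 14 of 17 called lower, 14 of 23 not called and 1 of 4 called higher. CACGTG was in 16.1% of the helicase windows, against 9.08% of windows of genes tested and 7.26% of all windows. Of windows of all genes in the most abundant class, 10.9% held this motif. It was in 5 of the 21 windows of helicase genes called lower. For helicase genes not called it was in 3 of 30 windows, and for those called higher in 1 of 7. GGGCGG was in 59.7% of helicase windows and 64.2% of windows of genes tested, and TATAAA in 6.45% and 6.67%. Matches of different motifs were counted separately and may overlap, and the 4 motifs were chosen with the fold changes known.

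Ribosome biogenesis, the largest class, held the most falls. Of 16 nucleolar helicase genes, all tested, 9 fell in shRNH1 and the other 7 did not pass, with a median log2 fold change of -0.35, and 6 to 10 fell under the other settings. Of all genes tested 12.3% were lower, and of those in the most abundant class 27.7%. The share that fell was close to that of the splicing helicases below, 5 of 9. DDX51 (GRCh38 chromosome 12, 132136594 to 132144335, minus strand), which acts in assembly of the large ribosomal subunit, measured 46.8, 46.0 and 44.7 CPM in shRNH1, against 76.4, 74.7 and 81.0 CPM in shControl. The libraries within each group lay close together and the groups lay far apart. The log2 fold change was -0.76 (edgeR adjusted p = 3.55e-07; SE 0.0902). DHX37 (chromosome 12, 124946825 to 124989122, minus strand), which helps to release the U3 snoRNA from the precursor of the small subunit, measured 251, 265 and 244 CPM in shRNH1, against 379, 348 and 403 CPM in shControl. In log2 this was a fold change of -0.57 (adjusted p = 3.95e-05 by the same test; SE 0.0941). DDX31, a nucleolar helicase, measured 50.7, 46.9 and 52.6 CPM in shRNH1, against 78.3, 68.6 and 71.2 CPM in shControl. DDX31 thus lay at -0.54 in log2 (adjusted p = 7.37e-05 by the same test; SE 0.0933). DDX54, a nucleolar helicase that has also been described as a corepressor of nuclear receptors, measured 368, 397 and 371 CPM in shRNH1, against 492, 471 and 603 CPM in shControl, with a log2 fold change of -0.46 (adjusted p = 0.00105 by the same test; SE 0.102). The groups did not overlap for any of these 4 genes, and all 4 passed under each of the 14 other settings tried.

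DDX21, a nucleolar helicase of pre-rRNA processing that is also known for unwinding R-loops, measured 176, 175 and 205 CPM in shRNH1, against 271, 238 and 222 CPM in shControl. The groups did not overlap, but the highest shRNH1 library came near the lowest shControl library. The log2 fold change was -0.40 (SE 0.0989; edgeR adjusted p = 0.00335), and it was -0.31 without shControl replicate 1, where it did not pass (adjusted p = 0.0579). DHX33 (-0.35), DDX55 (-0.36) and DDX10 (-0.36), all of pre-ribosome assembly, fell by similar amounts, with no overlap of the groups. Of the exons of DDX55, 16.2% lie over those of EIF2B1 on the other strand, which also fell (-0.31), and its part in the fall of DDX55 was not tested. With library size alone DDX10 and DDX55 missed the threshold (both -0.25), as DDX10 did without shRNH1 replicate 1 (-0.32). DDX47, an rRNA processing factor, was listed at 53, 38 and 44 counts in shRNH1, against 85, 96 and 71 counts in shControl, the lowest level of the group. That is few counts for a gene known to be widely expressed, the read counter is not stated, and the part of the counting in this level was not tested. Its log2 fold change of -0.69 had the widest error of the members called (SE 0.246; adjusted p = 0.0361), and it did not pass with library size alone (-0.59) or without shControl replicate 1 (-0.68) or 2 (-0.64) or shRNH1 replicate 2 (-0.56) or 3 (-0.70).

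The 7 ribosome biogenesis helicases that did not pass had log2 fold changes from -0.23 for DDX27 to 0.24 for DDX50. DDX18, DDX24, DDX49 and DDX52 lay between -0.21 and -0.13, and DDX56 was at 0.05. DDX50 is the closest paralog of DDX21 and its neighbour on chromosome 10, and it measured 18.2, 19.4 and 17.7 CPM in shRNH1, against 15.4, 16.0 and 15.6 CPM in shControl. Its log2 fold change of 0.24 missed the threshold (edgeR adjusted p = 0.0934) and was 0.35 with library size alone, where it passed (adjusted p = 0.0254). The ratio of DDX21 to DDX50 counts within a library, which needs no scaling between libraries, was 9.69, 9.02 and 11.6 in shRNH1, against 17.6, 14.9 and 14.3 in shControl. The ratio was lower in all 3 shRNH1 libraries than in any shControl library (exact two-sided permutation test, p = 0.1, the smallest that 3 against 3 allows; 0.25 adjusted over 5 pairs).

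**Figure D3:**
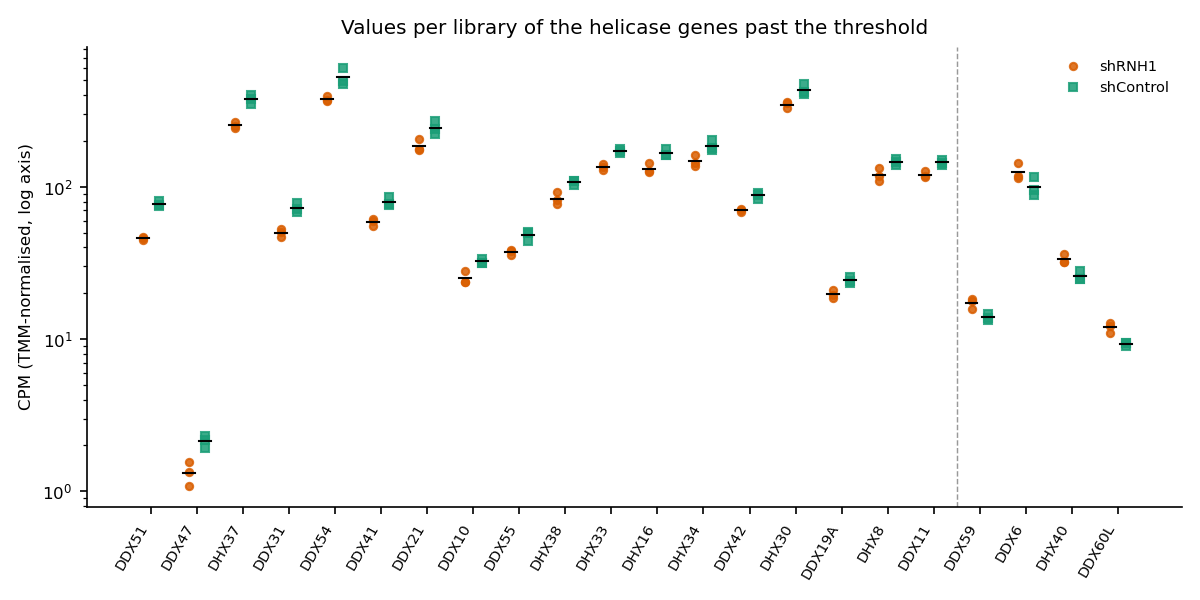
CPM on a log axis (y) in each library of shRNH1 (circles) and shControl (squares) for the 22 helicase genes called; black lines are means of 3 libraries, and the dashed line parts the 18 lower genes from the 4 higher ones. All groups are separate except those of DDX6, where the shControl library at 116 CPM lies above the shRNH1 library at 114 CPM.

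Splicing helicases formed the next group. All 9 were tested and had negative log2 fold changes, 5 of them fell, and the median was -0.28, where 12.3% of all genes tested and 27.7% of those in the most abundant class were lower. The count was 3 with library size alone, with the expression level offset, without shControl replicate 1 and without shRNH1 replicate 3. DDX41, a spliceosome component whose germline variants predispose to myeloid neoplasms and which is also known for acting on R-loops, measured 61.4, 59.5 and 55.7 CPM in shRNH1, against 76.3, 76.8 and 86.2 CPM in shControl. The groups were separate, at a log2 fold change of -0.44 (edgeR adjusted p = 6.64e-04), and DDX41 passed under all 14 other settings. DHX38, the human PRP16, which remodels the spliceosome between the steps of splicing, measured 92.4, 77.5 and 81.3 CPM in shRNH1, against 108, 103 and 110 CPM in shControl. The difference was -0.35 in log2 (adjusted p = 0.00512), and DHX38 too passed under all 14 settings. DHX38 shares 16.1% of its exon length with genes on the other strand, among them TXNL4B, which fell as well (-0.31), and the part of those reads was not tested. DHX16, the human PRP2, measured 143, 127 and 126 CPM in shRNH1, against 163, 161 and 176 CPM in shControl. DDX42, which binds the U2 snRNP component SF3B, measured 71.2, 68.5 and 70.7 CPM in shRNH1, against 91.6, 88.9 and 83.5 CPM in shControl. The log2 fold changes of DHX16 and DDX42 were -0.34 and -0.33 (adjusted p = 0.00659 and 0.00668, same test), with no overlap of the groups.

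DHX8, the human PRP22, which releases the spliced mRNA, had 133, 109 and 118 CPM in shRNH1, against 152, 140 and 146 CPM in shControl. DHX8 fell by 0.28 on the log2 scale (edgeR adjusted p = 0.0249), and 6 of the 14 other settings did not call it. Among these were library size alone (-0.17), the expression level offset (-0.20) and the fits without shControl replicate 1 (-0.25), shRNH1 replicate 2 (-0.22) or shRNH1 replicate 3 (-0.27). With the expression level offset DHX16 missed the threshold (-0.24, adjusted p = 0.0511), as it did without shRNH1 replicate 3 (-0.30, adjusted p = 0.0508), and DDX42 missed it with library size alone (-0.22) or without shControl replicate 1 (-0.30, adjusted p = 0.0516). The splicing helicases that did not pass were DHX35 (-0.22), DHX15 (-0.12), DDX23 (-0.10) and DDX46 (-0.10). DHX15, the human PRP43, takes apart the spent spliceosome, and DDX23 and DDX46 are the human PRP28 and PRP5.

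The helicases best known for R-loops outside the nucleolus and the spliceosome did not pass the test. DHX9, also called RNA helicase A, measured 268, 233 and 300.4 CPM in shRNH1, against 285, 251 and 233 CPM in shControl. DDX5, a coactivator and splicing regulator, measured 224, 178 and 229 CPM in shRNH1, against 257, 237 and 209 CPM in shControl. DDX1, part of the tRNA ligase complex, measured 64.6, 54.0 and 69.2 CPM in shRNH1, against 71.1, 68.4 and 61.3 CPM in shControl. The groups overlapped for all 3 genes, with log2 fold changes of 0.06 for DHX9 (SE 0.104), -0.16 for DDX5 (SE 0.105) and -0.10 for DDX1 (edgeR adjusted p = 0.522). DDX17, the paralog of DDX5, had a log2 fold change of 0.09 (SE 0.0931), also not called. The ratio of DDX17 to DDX5 counts was 1.99, 2.39 and 2.01 in shRNH1, against 1.64, 1.83 and 1.89 in shControl, higher in every shRNH1 library (exact two-sided permutation test, p = 0.1, 0.25 adjusted over 5 pairs). DDX20, which belongs to the SMN complex, was at -0.07.

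DDX11, a DNA helicase of sister chromatid cohesion, was the gene of transcription and genome maintenance that fell. It measured 127, 118 and 116 CPM in shRNH1, against 139, 150.1 and 144 CPM in shControl, with a log2 fold change of -0.26 (edgeR adjusted p = 0.0278). The groups did not overlap, but the call was lost under 8 of the 14 other settings. Among these were library size alone (-0.15), no filter (-0.27), the expression level offset (-0.18) and the fits without shControl replicate 1 (-0.29) or 2 (-0.25) or shRNH1 replicate 2 (-0.24) or 3 (-0.24). DDX12P and DDX12B, annotated as pseudogenes, are near copies of DDX11 that can share its reads, and they had log2 fold changes of -0.16 and -0.26, neither of them called. DDX11 had 5.59, 4.71 and 5.74 counts per count of DDX12P in shRNH1, against 6.24, 5.13 and 5.92 in shControl, and the groups overlapped.

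**Figure D4:**
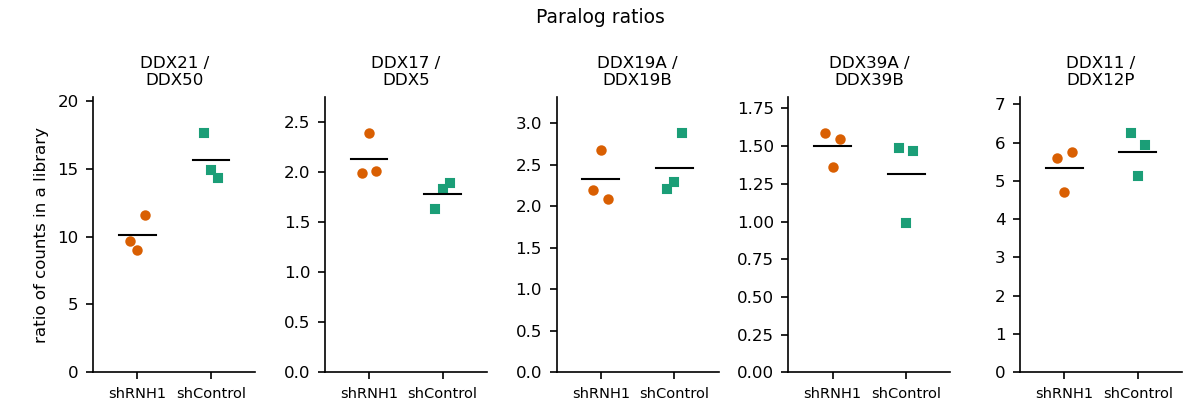
Ratio of the counts of paralogous helicase genes within each library (y), with shRNH1 circles left and shControl squares right in each panel and black lines at the means of 3 libraries. The DDX21 to DDX50 ratio was lower and the DDX17 to DDX5 ratio higher in every shRNH1 library, and the groups overlapped for the other 3 pairs.

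Export helicases changed little. DDX19A, which releases mRNA proteins at the nuclear pore, measured 21.1, 18.7 and 19.6 CPM in shRNH1, against 23.9, 25.5 and 23.3 CPM in shControl. The groups were separate, at a log2 fold change of -0.29 (edgeR adjusted p = 0.0316), but DDX19A was not called under 7 of the 14 other settings. Among these were library size alone (-0.18), no filter (-0.30) and the fits without shControl replicate 1 (-0.30) or 2 (-0.26) or shRNH1 replicate 2 (-0.25) or 3 (-0.29). Its paralog DDX19B, which can share its reads, had a log2 fold change of -0.22 that did not pass. The ratio of DDX19A to DDX19B counts was 2.19, 2.68 and 2.09 in shRNH1 and 2.21, 2.29 and 2.88 in shControl. DDX39B, also called UAP56, the ATPase of the TREX export complex, measured 110, 109 and 106 CPM in shRNH1, against 103, 145 and 105 CPM in shControl. Its paralog DDX39A measured 174, 148 and 164 CPM in shRNH1, against 153, 143 and 154 CPM in shControl. Groups overlapped for both, with log2 fold changes of -0.12 and 0.11, and that of DDX39A passed with library size alone (0.22, adjusted p = 0.0439). Without shControl replicate 2, the library at 145 CPM, that of DDX39B was 0.05 and not called. Of the exons of DDX39B 89.3% and of DDX19A 62.6% are shared with other genes, counting readthrough transcripts and genes on the other strand together. The readthrough genes had at most 1 count in a library. On the other strand, DDX39B-AS1 had 6 to 23, MCCD1 14 to 46 and, over DDX19A, AC012184.4 9 to 20 counts in a library. How the counter treated reads of shared exons is not stated, so these low counts do not settle where such reads went. The part of the overlap in the levels of DDX39B and DDX19A was not tested.

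Among helicases of translation and decay 1 gene rose and 1 fell. DDX6, a translational repressor and decapping activator of P-bodies, measured 114, 118 and 144 CPM in shRNH1, against 116, 95.1 and 88.7 CPM in shControl. It rose by a log2 fold change of 0.33 (edgeR adjusted p = 0.0231; SE 0.107) although the groups overlapped, and it was not called without shControl replicate 2 (0.28) or 3 (0.25) or shRNH1 replicate 3 (0.22). DHX34, which acts in nonsense-mediated decay, measured 144, 163 and 136 CPM in shRNH1, against 179, 174 and 204 CPM in shControl. DHX34 fell by 0.33 on the log2 scale (adjusted p = 0.0117, same test), and it was not called with library size alone (-0.21), with the expression level offset (-0.23) or without shRNH1 replicate 1 (-0.31) or 3 (-0.27). DDX3X, which aids translation of structured mRNAs, was at 0.05, DHX29, which acts on the scanning ribosome, at 0.06, and DHX36, a resolvase of G-quadruplexes, at -0.12, none of them called. DHX30, which is needed for assembly of the mitochondrial ribosome, measured 360, 327 and 353 CPM in shRNH1, against 418, 404 and 473 CPM in shControl. It fell by a log2 fold change of -0.32 (adjusted p = 0.0141, same test), and was not called with the expression level offset (-0.17, adjusted p = 0.194). DDX28, also of the mitochondrial ribosome, was at -0.24 with no overlap of the groups and did not pass (adjusted p = 0.0772).

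The remaining rises were in genes outside these groups. DHX40, whose role is less settled, measured 32.1, 31.9 and 36.3 CPM in shRNH1, against 28.1, 24.8 and 24.9 CPM in shControl, with a log2 fold change of 0.36 (edgeR adjusted p = 0.00686). DDX60L, a relative of the interferon-induced DDX60, measured 11.0, 12.8 and 12.2 CPM in shRNH1, against 9.02, 9.36 and 9.47 CPM in shControl, with a log2 fold change of 0.37 (adjusted p = 0.0191, same test). DDX59, mutated in an orofaciodigital syndrome, measured 17.7, 15.7 and 18.2 CPM in shRNH1, against 14.6, 13.3 and 13.8 CPM in shControl, with a log2 fold change of 0.31 (adjusted p = 0.0370, same test). The groups did not overlap for these 3 genes. The count of helicase genes called higher was smaller with any 1 library left out, which also leaves fewer libraries in a group. It was 2 without shControl replicate 1, 1 without shControl replicate 2 and 0 without shRNH1 replicate 3. With any other single library left out it was 3. DHX40 was at 0.30 (adjusted p = 0.0543) without shRNH1 replicate 3. DDX60L was also not called with the expression level offset (0.28) or without shControl replicate 1 (0.35) or 2 (0.37) or shRNH1 replicate 2 (0.33) or 3 (0.36). DDX59 passed under 4 of the 14 other settings, with log2 fold changes from 0.25 to 0.42 over them. DHX32 (0.24) lay higher in every shRNH1 library but did not pass, and DHX57 was at -0.20.

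The germline helicases were nearly silent. DDX4, the human VASA, was listed at 0 in every library, DDX25 had at most 4 counts and DDX53 at most 3 counts in a library, and none of these 3 was tested. DDX43, a cancer-testis gene, was at 0.324, 0.370 and 0.182 CPM in shRNH1, against 0.411, 0.387 and 0.190 CPM in shControl. Per kilobase of exon in GENCODE 29, DDX54 (119), DHX30 (96.1), DDX39A (96.1), DDX17 (87.0) and DDX5 (84.8 CPM per kilobase) were the most abundant members in shControl. In shRNH1 the levels were 86.5 for DDX54, 77.2 for DHX30, 104 for DDX39A, 92.6 for DDX17 and 76.0 CPM per kilobase for DDX5. Members called lower were more abundant than the other members tested, with a median of mean log2 CPM of 6.81 against 5.23.

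Related genes were read from 3 further lists. Of 23 tested RNA helicases with other symbols, 3 were lower and 3 higher, with a median log2 fold change of -0.03, counts near the 12.3% lower and 15.3% higher of all genes tested. EIF4A1 (-0.54), the helicase of cap-dependent translation, EIF4A3 (-0.33), the core of the exon junction complex, and RTEL1 (-0.41), a DNA helicase of telomeres, fell. EIF4A1 had only 10.8 CPM in shRNH1 and 15.7 CPM in shControl, few for a gene known to be widely and highly expressed, and the part of the counting in this level was not tested. The viral RNA sensor gene IFIH1 (0.52), HELZ2 (0.47) and ZNFX1 (0.29) rose. ZNFX1, which overlaps DDX27, was not called without shControl replicate 2 (0.26) or shRNH1 replicate 1 (0.24) or 3 (0.26), nor RTEL1 with library size alone (-0.30) or without shRNH1 replicate 1 (-0.36). RIGI (0.16) and the R-loop helicase gene AQR (-0.01) did not pass. EIF4A3 was not called with library size alone (-0.22) or without shRNH1 replicate 3 (-0.30, adjusted p = 0.0529). Of 21 tested G-patch proteins, several of which are known to activate DEAH-box helicases, 8 fell, with a median of -0.19. PINX1 (-0.67), RBM6 (-0.43), ZGPAT (-0.58) and RBM17 (-0.40) had the smallest adjusted p, and RBM17 did not pass with library size alone (-0.29). Of 19 cofactors of DEAD-box helicases 7 fell and 2 rose, with a median of -0.22. The scaffold genes EIF4G3 (-0.84), EIF4G2 (-0.48) and NOM1 (-0.58), which partner DEAD-box helicases, fell, and PDCD4 (0.65), an inhibitor of EIF4A, rose. NOM1 measured 56.8 ± 4.55 CPM in shRNH1 and 84.7 ± 9.77 CPM in shControl (SD, n = 3 each). The share called lower of all genes tested, 12.3%, stands beside 8 of 21 and 7 of 19 in these lists. In the most abundant class that share was 27.7% and in the next 16.8%, and the lists were not split by abundance. With library size alone the counts lower in these lists were 5 and 4, that of the other helicases was 1, and 3 G-patch genes were higher. The count of cofactors lower was also 4 without shControl replicate 1, and the count higher was 1 under 9 of the 14 settings.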

How the data were processed

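RNA of 3 shRNH1 and 3 shControl libraries was sequenced. The deposited values are raw counts per Ensembl gene ID, with no normalisation by the authors, and each of the 6 columns matched 1 sample's description. GRCh38, HISAT2, StringTie and DESeq2 are named per the submitters' processing notes, without versions or roles. The read counter and the strand it used were not given in the sources used here. Reads of antisense neighbours and of near-identical paralogs may therefore be mixed. Symbols were found for 62700 of 62700 IDs, and positions and exon lengths came from GENCODE 29, a different release.

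The deposited counts were tested with edgeR 4.0.16 (quasi-likelihood; R 4.3.3) after filterByExpr and TMM, without covariates, and p-values were adjusted by Benjamini-Hochberg over 19682 genes; SEs came from the F statistic. The same test was also run on simulated counts with a common dispersion and few changed genes, balanced up and down. That run does not show how the test does where many genes change, as they do here. The 14 alternatives were DESeq2 1.42.0, limma-voom (limma 3.58.1), RLE size factors, library size alone, no filter, a filter of 1 CPM in 3 libraries, a replicate block, an expression level offset (robust spline of 5 degrees of freedom, MASS 7.3.60.0.1) and each library left out.

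Members, role classes and lists were chosen with earlier results of these data known. Values in every library are given for up to 4 members called per role (smallest adjusted p), for DDX1, DDX5, DDX21, DDX41 and DHX9, and for paralogs; other values given per library, and DDX12B's role class, were chosen after seeing the data. Of the other lists, up to 4 members with the smallest adjusted p follow the rule, and others named were chosen after seeing values. Some single genes of the lists are not reported here.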

Additional observations from a re-analysis of the deposited data

How the results depend on the processing

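All 22 helicase calls kept their direction under the 14 alternatives, and 7 passed under every one of them (DDX31, DDX41, DDX51, DDX54, DHX33, DHX37 and DHX38). The count of helicase genes lower, 18, was 10 with library size alone and 12 to 18 with 1 library left out. The count higher, 4, was 7 with library size alone, 2 with the expression level offset and 0 to 3 with 1 library left out. The median of -0.19 was -0.079 with library size alone and -0.23 to -0.16 with 1 library left out. Of all genes, 3006 were higher and 2418 lower, and with library size alone 4065 and 1433. With the replicate block 15 helicase genes were lower and 3 higher, at a median of -0.19, and 2156 and 2938 of all genes, and DDX11, DDX19A, DDX59, DHX8 and ZNFX1 did not pass. Replicate numbers did not visibly pair the libraries. Deviations from the group means correlated across genes at 0.0476, 0.033 and -0.146 for same-numbered libraries, and at -0.212 to 0.201 for differently numbered ones. Another matching of libraries between the groups was not tested. Changes of less than about 0.25 in log2 were mostly not called at the members' median SE of 0.0994, so a gene not called is not shown to be equal between groups. Why calls moved between settings was not tested. Libraries of 1 group differed beyond counting noise (chi-square per gene of 6.47 to 21.1 between them), which does not show separate cultures.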
